A study of Mus musculus with 16 samples.

Results

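RNA of mouse primary hepatocytes treated with FK866 was compared with that of hepatocytes given the vehicle alone, gene by gene, on Illumina bead arrays. The cells came from wild type B6 mice and were kept in culture for 48 h in either FK866 at 200 nM or DMSO at 0.1%, with 4 arrays in each group. The genes described are those detected (detection p under 0.05) on 4 or more of these 8 arrays, which held for 8567 of the 18111 gene symbols, 7729 of them detected on all 8 arrays and 838 on 4 to 7. The series also holds 8 arrays of primary pancreatic islets. They were used here where the response of the tissues is set side by side, and in choosing the probe that stands for a gene. The labels give no sex or age of the mice, do not say how many mice a culture came from, and do not name separate animals or cultures for the replicates. The spread behind the p-values is therefore that of these samples alone and can be technical.

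FK866 inhibits NAMPT, the enzyme that joins nicotinamide to phosphoribosyl pyrophosphate to give nicotinamide mononucleotide, the last precursor before NAD in the salvage route. NAD carries electrons between glycolysis, fatty acid oxidation and the respiratory chain, and sirtuins and poly(ADP-ribose) polymerases consume it. Hepatocytes can also make NAD from tryptophan and from nicotinic acid, routes that do not pass through NAMPT. The drug acts on an enzyme, so the level of Nampt RNA does not report whether the treatment worked, and the arrays hold no measure of NAD.

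Each array detected part of the 25697 probes, 11018 to 11437 in the FK866 group and 11043 to 11746 in the control group, and median signals were 27.1 to 30.1. Of 18 hepatocyte markers, 14 passed the filter, among them transthyretin (Ttr), the urea cycle enzymes Cps1 and Ass1 and the nuclear receptor Hnf4a. The other 4 were Tat, Cyp2c29, Fgb and albumin, whose symbol sat at the lowest value of the deposited gene table on every hepatocyte array. The 14 measured markers summed to 162271 to 191265 signal units on FK866 arrays and to 159821 to 195557 on control arrays. Of 12 lymphocyte markers none passed the filter. FK866 and control arrays were compared within the replicate numbers of their titles, as 4 pairs. Arrays with the same number deviated from their group means in the same genes (r across genes 0.385 to 0.615 within a number and -0.369 to 0.0775 between numbers).

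No gene passed the test. With limma's moderated test, the smallest p adjusted by Benjamini-Hochberg over the 8567 genes was 0.571, so 0 genes (0.0%) were called at 0.05. At an unadjusted p under 0.05 there were 535 genes (6.24%), 269 higher with FK866 (3.14%) and 266 lower (3.1%). The numbers of genes higher in all 4 pairs, 591 (6.9%), and lower in all 4 pairs, 610 (7.12%), were close to each other too. Changes, given as FK866 minus control in log2 units with limma's SE, were small, with an SD of 0.11 log2 over genes, and the middle 90% of them lay between -0.18 and 0.18. The 95% confidence interval of the change lay within a 2-fold change in either direction for 99.9% of the genes and within 1.5-fold for 97.1%. The fitted change exceeded 1.5-fold for 8 genes, all of them higher with FK866, and 2-fold for 3, the actins Actc1 and Acta1 and the keratin Krt17. With arrays centred on their medians in place of quantile normalization the median change of all genes moved to 0.039, and 75.1% of 575 genes at an unadjusted p under 0.05 were then higher. Counts above and below 0 given further on with median centring carry this shift of all genes.

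**Figure D1:**
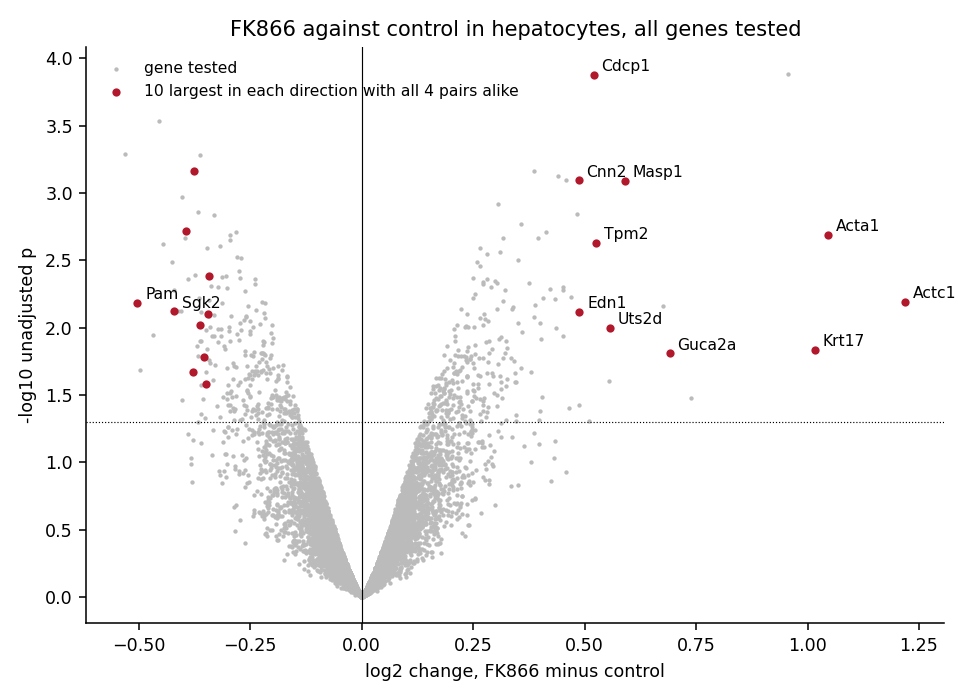
Change of each of the 8567 genes tested (FK866 minus control, log2, horizontal) against the -log10 of its unadjusted p (vertical), with the dotted line at 0.05. The points farthest to the right are Actc1, Acta1 and Krt17, and no decrease goes beyond 1.5-fold.

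Muscle-type actins and their partners were among the 10 largest increases of genes detected on every array with all 4 pairs alike. Actc1, the cardiac muscle alpha-actin, had log2 signals of 8.40, 8.44, 7.43 and 7.39 on FK866 arrays, against 6.42, 6.41, 7.04 and 6.91 on control arrays. All FK866 arrays lay above all control arrays, and numbers 1 and 2 stood farthest apart. Its change was 1.22 log2 (SE 0.31), with differences of 1.98, 2.03, 0.39 and 0.48 in pairs 1 to 4, and an adjusted p of 0.691 in limma's moderated test. Acta1, the skeletal muscle alpha-actin, had log2 signals of 11.32, 11.58, 11.38 and 11.28 on FK866 arrays, against 9.61, 10.17, 10.83 and 10.78 on control arrays. Its FK866 arrays were alike and all above the control arrays, which were lowest in numbers 1 and 2. The change of Acta1 was 1.05 log2 (SE 0.21), with an adjusted p of 0.691. Tpm2, the beta-tropomyosin that lies along actin filaments, had log2 signals of 12.45, 12.70, 12.20 and 12.20 on FK866 arrays, against 11.75, 11.88, 11.97 and 11.85 on control arrays. The groups did not overlap, and the change was 0.52 log2 (SE 0.11), by the only 1 of its 3 probes that was detected, and of the other sign on the deposited score scale, which averages all 3. Cnn2, a calponin that binds actin, had log2 signals of 8.97, 8.95, 8.97 and 8.98 on FK866 arrays, against 8.58, 8.19, 8.53 and 8.63 on control arrays. Its 4 FK866 arrays were close together and above every control array, with a change of 0.49 log2 (SE 0.08) and an adjusted p of 0.632. Cnn2 was measured by 2 detected probes, whose changes were 0.35 and 0.49.

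Actc1, Acta1 and Cnn2 also have in common a letter pattern at their gene starts. The CArG box, the site that serum response factor binds in many actin and smooth muscle genes, was searched in the 250 bases before the start of each gene in the RefSeq promoter table of GRCm38.p6. Only exact matches were counted, and no other motif was searched. The consensus, CCWWWWWWGG with W for A or T, reads the same on both strands. It was found for 1.62% of the 27025 genes of the table and for 1.57% of the 6579 tested genes that the table held. Of the 10 largest increases named here, 8 were in the table and 3 held the box, and the sequences of these 3 are given with the box in capitals. Of the 10 largest decreases, 7 were in the table and Acsm3 held one. Among the tested genes of the actin and serum response factor list described below, 35 were in the table and 7 held the box. The box was chosen with these increases known, and that list was drawn up to hold serum response factor targets. The counts are therefore a description and not a test of enrichment. Tpm2 and Acta2 were in the table, and their windows held no exact match. Near matches, such as ccctatatgg and ccttgtttgg in the Acta2 window, were not counted for any gene. The Actc1 window is chr2:114052876-114053125 on the minus strand and its box starts 47 bases before the gene start. The Acta1 window is chr8:123894776-123895025 on the minus strand and its box starts 73 bases before the start. The Cnn2 window is chr10:79988350-79988599 on the plus strand and its box starts 56 bases before the start. A match describes letters and not binding, which was not measured.
Actc1: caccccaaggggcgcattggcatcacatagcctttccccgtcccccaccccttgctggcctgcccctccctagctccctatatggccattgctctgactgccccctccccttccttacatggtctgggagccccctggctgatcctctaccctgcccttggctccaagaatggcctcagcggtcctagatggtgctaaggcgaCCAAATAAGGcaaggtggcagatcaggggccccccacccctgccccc
Acta1: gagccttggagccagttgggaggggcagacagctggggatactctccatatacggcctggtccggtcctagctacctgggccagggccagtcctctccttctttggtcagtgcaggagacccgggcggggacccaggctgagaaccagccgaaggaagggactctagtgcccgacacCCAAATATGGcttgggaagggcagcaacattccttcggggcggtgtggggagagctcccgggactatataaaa
Cnn2: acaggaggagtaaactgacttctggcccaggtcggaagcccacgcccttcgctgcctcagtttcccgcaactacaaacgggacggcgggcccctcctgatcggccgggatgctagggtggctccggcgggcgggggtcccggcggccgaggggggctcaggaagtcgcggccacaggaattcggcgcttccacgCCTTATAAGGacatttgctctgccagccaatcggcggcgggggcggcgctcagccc

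The list of actin cytoskeleton genes and serum response factor targets held 42 tested genes. Of these, 35 were higher and 7 lower, against 4307 (50.3%) and 4260 (49.7%) over all genes tested. At an unadjusted p under 0.05, 10 of the 42 were higher and 0 lower (3.14% and 3.1% over all genes). With no replicate block 4 of the 42 were at such a p (145 of 8567 over all genes). Without number 1 the split was 30 higher and 12 lower. In all 4 pairs, 13 were higher and 0 lower (6.9% and 7.12% over all genes). The median change of the list was 0.085, against 0.00038 over all genes, and its medians in pairs 1 to 4 were 0.201, 0.091, 0.049 and 0.056. None of the 42 passed the adjusted threshold. Actb, the cytoplasmic beta-actin, had log2 signals of 15.61, 15.44, 15.44 and 15.53 on FK866 arrays, against 15.33, 15.23, 15.51 and 15.53 on control arrays. The arrays of the groups overlapped, the change was 0.10 log2 (SE 0.08), and the mean of its detected probes gave a change of the opposite sign. Acta2, the smooth muscle alpha-actin, had log2 signals of 12.26, 12.06, 12.10 and 12.59 on FK866 arrays, against 11.81, 11.59, 11.71 and 12.55 on control arrays. The pair of number 4 was level and high, and the change over the 4 pairs was 0.34 log2 (SE 0.09). Tagln, a calponin-related protein of smooth muscle, differed by 0.45 log2 (SE 0.11), detected on 4 of 4 FK866 arrays and 2 of 4 control arrays. Cyr61, a matricellular protein and serum response factor target, differed by 0.19 log2 (SE 0.08).

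**Figure D2:**
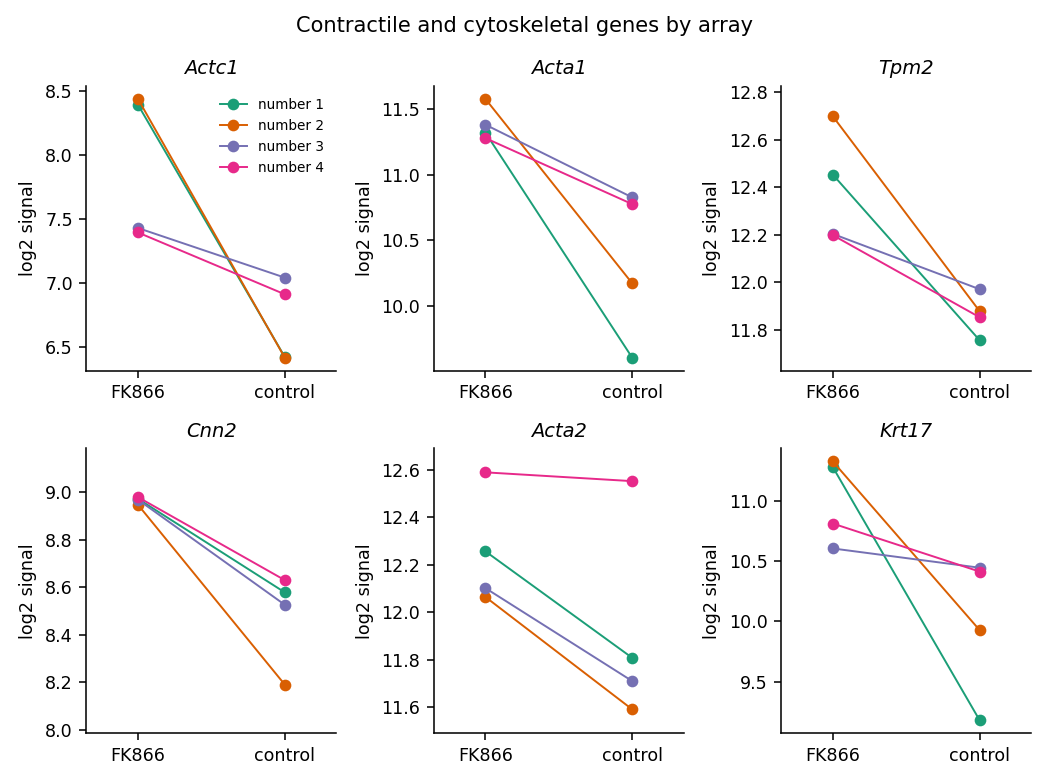
Log2 signals of 6 contractile and cytoskeletal genes on the FK866 array (left) and the control array (right) of each replicate number, joined by a line per number. Every line falls toward control, steeply in numbers 1 and 2 for Actc1, Acta1 and Krt17, and the line of number 4 is nearly level for Acta2.

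Some of these genes also mark stellate cells and fibroblasts, which can remain among isolated hepatocytes. Of 19 markers of these cells, 10 passed the filter, and 7 were detected on no array or at the lowest value, among them the collagens Col1a2 and Col3a1, Lrat and Pdgfrb. The 10 measured markers summed to 16963 to 22114 signal units on FK866 arrays and to 15771 to 21257 on control arrays. Of the 10, 7 were higher and 3 lower, with a median change of 0.090, and 4 were higher and 2 lower at an unadjusted p under 0.05 (3.14% and 3.1% over all genes). Without number 1 the split was 5 and 5 and the median 0.039. Lox, an enzyme that crosslinks collagen, differed by 0.48 log2 (SE 0.09), and the surface protein Thy1 differed by 0.30 log2 (SE 0.11), but the proteoglycans Dcn and Bgn differed by -0.24 log2 (SE 0.06) and -0.20 log2 (SE 0.06). Dcn had log2 signals of 9.28, 9.07, 8.71 and 9.43 on FK866 arrays, against 9.54, 9.33, 8.92 and 9.65 on control arrays. It was lower with FK866 in every pair. The part of these cells in the higher contractile signals was not tested, and in such bulk samples fewer cells of a type and less RNA per cell cannot be told apart.

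The remaining 6 of the 10 largest increases came from other functions. Krt17, a keratin of stressed and regenerating epithelia, had log2 signals of 11.28, 11.33, 10.61 and 10.81 on FK866 arrays, against 9.18, 9.93, 10.45 and 10.41 on control arrays. The groups did not overlap, but the change of 1.02 log2 (SE 0.31) came largely from numbers 1 and 2, with pair differences of 2.10, 1.40, 0.16 and 0.40. Guca2a, the guanylate cyclase ligand guanylin, differed by 0.69 log2 (SE 0.21) and Uts2d, a urotensin-related peptide, differed by 0.56 log2 (SE 0.16). Masp1, a serine protease in the lectin pathway of complement, had log2 signals of 8.58, 7.51, 7.36 and 7.48 on FK866 arrays, against 7.86, 6.70, 7.13 and 6.88 on control arrays. It was higher with FK866 in each pair, while number 1 stood above the others in both groups, and its change was 0.59 log2 (SE 0.10). Edn1, the vasoconstrictor endothelin 1, differed by 0.49 log2 (SE 0.13). Cdcp1, a transmembrane substrate of Src kinases, had log2 signals of 7.09, 6.76, 7.06 and 6.69 on FK866 arrays, against 6.51, 6.18, 6.70 and 6.13 on control arrays. Its 4 pair differences of 0.58, 0.58, 0.36 and 0.56 were alike. The change of 0.52 log2 (SE 0.07) shared the smallest adjusted p of all genes in limma's moderated test, 0.571, with Speer3. Speer3 passed the detection filter through the FK866 arrays alone and is described below.

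The 10 largest decreases were smaller, between -0.50 and -0.34. Pam, which amidates peptide hormones, had log2 signals of 7.08, 6.62, 7.03 and 6.81 on FK866 arrays, against 7.43, 7.64, 7.32 and 7.16 on control arrays. All FK866 arrays lay below all control arrays, with number 2 farthest apart, and the change was -0.50 log2 (SE 0.13). Sgk2, a serum- and glucocorticoid-regulated kinase, had log2 signals of 6.97, 6.61, 7.28 and 7.14 on FK866 arrays, against 7.56, 7.28, 7.31 and 7.54 on control arrays. The groups did not overlap, and the change was -0.42 log2 (SE 0.11). Gpd1, the cytosolic glycerol-3-phosphate dehydrogenase that oxidizes NADH, had log2 signals of 6.60, 6.45, 6.22 and 6.66 on FK866 arrays, against 7.40, 6.63, 6.70 and 6.71 on control arrays. Pair 4 differed little, the control array of number 1 stood high, and the change was -0.38 log2 (SE 0.13). Acsm3, a mitochondrial medium-chain acyl-CoA synthetase, had log2 signals of 7.73, 6.69, 7.29 and 7.33 on FK866 arrays, against 8.21, 6.98, 7.62 and 7.73 on control arrays. The numbers differed more than the treatments, but the 4 pair differences of -0.48, -0.29, -0.33 and -0.40 were alike, and the change was -0.38 log2 (SE 0.06) with an adjusted p of 0.632. Hamp, which encodes the iron hormone hepcidin, had log2 signals of 12.90, 11.42, 12.79 and 12.66 on FK866 arrays, against 13.41, 11.87, 12.92 and 12.95 on control arrays. Both arrays of number 2 were the lowest of their groups, and the change was -0.34 log2 (SE 0.08). The others were Plac8 differing by -0.39 log2 (SE 0.08), the Notch target Hey1 differing by -0.36 log2 (SE 0.10), the Shc-binding protein Shcbp1 differing by -0.35 log2 (SE 0.11) (1 of its 3 probes detected, and of the other sign on the score scale), the acetyltransferase Sat2 differing by -0.35 log2 (SE 0.12) and the neuritin gene Nrn1 differing by -0.34 log2 (SE 0.09). The adjusted p of all 20 largest changes lay between 0.571 and 0.750, and 7 of the 20 had groups that did not overlap (1.07% over all genes, which were not chosen for size).

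**Figure D3:**
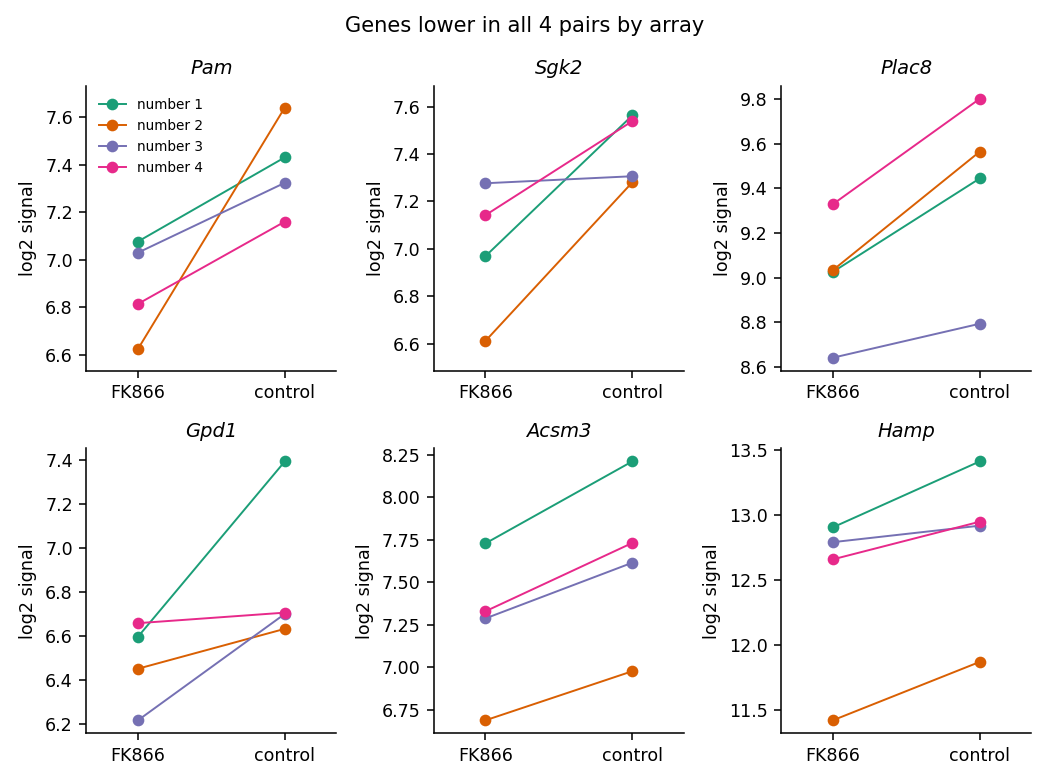
Log2 signals of 6 of the genes with the largest decreases on the FK866 array (left) and the control array (right) of each replicate number. Each line goes up toward control, and for Acsm3 and Hamp the numbers lie farther apart than the treatments.

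Speer3 and Syn3 were the only genes detected on all arrays of one group and on none of the other. Speer3 had log2 signals of 6.46, 6.49, 6.21 and 6.60 on FK866 arrays, against 5.18, 5.36, 5.64 and 5.74 on control arrays. All 4 FK866 arrays and 0 of 4 control arrays detected it. It passed the filter through the FK866 arrays alone, and Syn3 through the control arrays alone, so their differences follow from that choice and are a description. Set against the lowest detected signals, FK866 arrays were at least 1.34-fold higher, with an adjusted p of 0.571 by limma's moderated test. Speer genes form a multigene family, so the probe may not separate its members. Syn3, a synapsin, had log2 signals of 5.91, 5.78, 5.88 and 5.75 on FK866 arrays, against 6.26, 6.32, 6.14 and 6.07 on control arrays. 0 of 4 FK866 arrays and 4 of 4 control arrays detected it, and FK866 arrays were at least 1.13-fold lower, with an adjusted p of 0.691.

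The tested genes that make, use and recycle NAD mostly had fitted changes near 0. Nampt, the target of the drug, had log2 signals of 8.30, 8.26, 8.80 and 8.40 on FK866 arrays, against 8.53, 8.60, 8.42 and 8.59 on control arrays. The groups overlapped, and the change was -0.09 log2 (SE 0.12). Of the 14 genes of the salvage list 6 were tested, 3 higher and 3 lower. Nmnat1, Nmnat2, Nmnat3 and Nadsyn1 did not pass the filter. Naprt1, the entry enzyme for nicotinic acid, differed by 0.07 log2 (SE 0.06) (of the other sign as the mean of its detected probes) and the NAD kinase Nadk by -0.06 log2 (SE 0.06). The ectoenzyme Nt5e differed by 0.11 log2 (SE 0.10), the NADH hydrolase Nudt12 -0.11 log2 (SE 0.08) and the peroxisomal carrier Slc25a17 0.02 log2 (SE 0.09). Of the 11 genes of the route from tryptophan 6 were tested, with Tdo2, Kmo and Haao not among them. All 6 were below 0, by 0.07 or less (median -0.052). The pair medians were -0.195, -0.036, 0.048 and 0.040, and 3 of the 6 were above 0 without number 1 (median 0.016) and 2 of 6 with arrays centred on their medians (median -0.0065). Indo, an enzyme of the first step of the route, differed by -0.07 log2 (SE 0.07), and the aminotransferases Ccbl1 and Ccbl2 differed by -0.0034 log2 (SE 0.08) and -0.05 log2 (SE 0.06). Kynu, the kynureninase, differed by -0.05 log2 (SE 0.07), Afmid -0.05 log2 (SE 0.09) and Qprt, which forms nicotinic acid mononucleotide, -0.01 log2 (SE 0.08). Of the NAD-consuming enzymes 17 were tested, 8 higher and 9 lower (12 and 5 with median centring). Sirt1 had log2 signals of 8.45, 8.32, 8.40 and 8.58 on FK866 arrays, against 8.43, 8.41, 8.44 and 8.28 on control arrays, with a change of 0.05 log2 (SE 0.08). Of the mitochondrial sirtuins, Sirt3 differed by -0.02 log2 (SE 0.07) and Sirt5 0.01 log2 (SE 0.09), and of the others Sirt2 differed by -0.04 log2 (SE 0.07), Sirt6 0.01 log2 (SE 0.08) and Sirt7 -0.06 log2 (SE 0.07). The polymerases Parp1 and Parp3 differed by -0.02 log2 (SE 0.07) and 0.09 log2 (SE 0.12), and the tankyrase Tnks 0.14 log2 (SE 0.08). Nnmt, which methylates nicotinamide, had log2 signals of 13.36 ± 0.10 on FK866 arrays and 13.37 ± 0.09 on control arrays (SD, n = 4 each). Apart from Aox1, the 29 tested entries of the 3 lists lay between -0.11 and 0.14. Aox1, an aldehyde oxidase that can oxidize methylated nicotinamide, had log2 signals of 6.05, 6.23, 5.93 and 5.79 on FK866 arrays, against 6.71, 6.45, 6.14 and 6.26 on control arrays. It was detected on 1 of 4 FK866 arrays and on 4 of 4 control arrays and its change was -0.39 log2 (SE 0.09), with an adjusted p of 0.691. Its neighbour in function Aox3 differed by 0.09 log2 (SE 0.09). Slc12a8 was not among the tested genes.

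A list of 10 tested genes held enzymes and carriers that move reducing equivalents from cytosolic NADH, together with lactate dehydrogenases. Of the 10, 4 were higher and 6 lower (6 and 4 with median centring). Besides Gpd1, the mitochondrial aspartate-glutamate carrier Slc25a13 differed by -0.32 log2 (SE 0.07), detected on 3 of 4 FK866 arrays and 4 of 4 control arrays. Its log2 signals were 6.12, 5.78, 6.08 and 6.36 on FK866 arrays, against 6.41, 6.24, 6.42 and 6.54 on control arrays. It was lower with FK866 in every pair. Ldhd, the mitochondrial D-lactate dehydrogenase, had log2 signals of 7.64, 7.77, 7.47 and 7.93 on FK866 arrays, against 7.27, 7.08, 7.19 and 7.61 on control arrays. It was higher in every pair, with a change of 0.41 log2 (SE 0.08) and an adjusted p of 0.691. Gpd2, the mitochondrial partner of Gpd1, differed by -0.04 log2 (SE 0.06).

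Glycolytic genes leaned upward by small amounts. Of 16 tested, 14 were higher and 2 lower, with a median of 0.073 and pair medians of 0.203, 0.139, -0.070 and -0.017, so only pairs 1 and 2 lay above 0. Hexokinase 1 (Hk1) differed by 0.40 log2 (SE 0.16), detected on 4 of 4 FK866 arrays and 2 of 4 control arrays. Pklr, the liver pyruvate kinase, differed by 0.25 log2 (SE 0.08). Of 8 genes of gluconeogenesis and glycogen metabolism, 5 were higher and 3 lower. Fbp1, the fructose bisphosphatase, differed by -0.22 log2 (SE 0.07), G6pc3 0.27 log2 (SE 0.11), and the liver glucose-6-phosphatase G6pc 0.08 log2 (SE 0.09). Targets of hypoxia-inducible factor were higher in 17 of 18, with a median of 0.077. Of the 18, 0 had an unadjusted p under 0.05 (6.24% over all genes) and 0 were higher in all 4 pairs (6.9% over all genes). Without number 1 the split was 11 higher and 7 lower. Pdk1, the kinase that switches off pyruvate dehydrogenase, differed by 0.22 log2 (SE 0.09).

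Mitochondrial gene lists were centred near 0, and their splits around 0 moved with median centring, which put the median of all genes at 0.039. Of 24 genes of pyruvate dehydrogenase and the TCA cycle, 12 were higher and 12 lower (19 and 5 with median centring), with changes between -0.061 and 0.218. Of 64 genes of the respiratory chain and ATP synthase, 23 were higher and 41 lower, with a median of -0.008, but with median centring 45 were higher and 19 lower (median 0.017). The complex I subunit Ndufb11 differed by -0.43 log2 (SE 0.09) (of the other sign on the score scale), detected on 2 of 4 FK866 arrays and 4 of 4 control arrays, and Cox6a2, the muscle form of a complex IV subunit, differed by 0.34 log2 (SE 0.11). Mitochondrial ribosomal proteins (67 tested) had a median of -0.020, cytosolic ribosomal proteins (53 tested) -0.009 and proteasome subunits (33 tested) 0.014. In these 3 lists 0 members had an unadjusted p under 0.05 (6.24% over all genes). With median centring the medians were 0.030 for the mitochondrial and 0.0082 for the cytosolic ribosomal proteins.

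Of 24 genes of fatty acid oxidation and ketone body synthesis, 9 were higher and 15 lower (12 and 12 with median centring). Bdh1, which interconverts the ketone bodies with NADH, differed by -0.23 log2 (SE 0.09). Of 11 tested PPAR alpha targets, 6 were higher and 5 lower, with the acyl-CoA thioesterase Acot1 differing by -0.23 log2 (SE 0.10) and the transcription factor Creb3l3 differing by -0.21 log2 (SE 0.07). Of 30 genes of cholesterol and fatty acid synthesis, 20 were higher and 10 lower. Mvd, an enzyme of the mevalonate pathway, differed by 0.22 log2 (SE 0.08), while the triglyceride enzymes Gpam and Dgat2 differed by -0.23 log2 (SE 0.10) and -0.22 log2 (SE 0.09). Gpam was detected on 3 of 4 FK866 arrays and 4 of 4 control arrays. Of the 32 pathway lists with more members on one side of 0, the larger side turned or became even in 12 with median centring, in 9 on the deposited score scale and in 16 when some replicate number was left out. The median of all genes moved to 0.039 with median centring, so the turns in that setting carry a shift common to all genes.

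**Figure D4:**
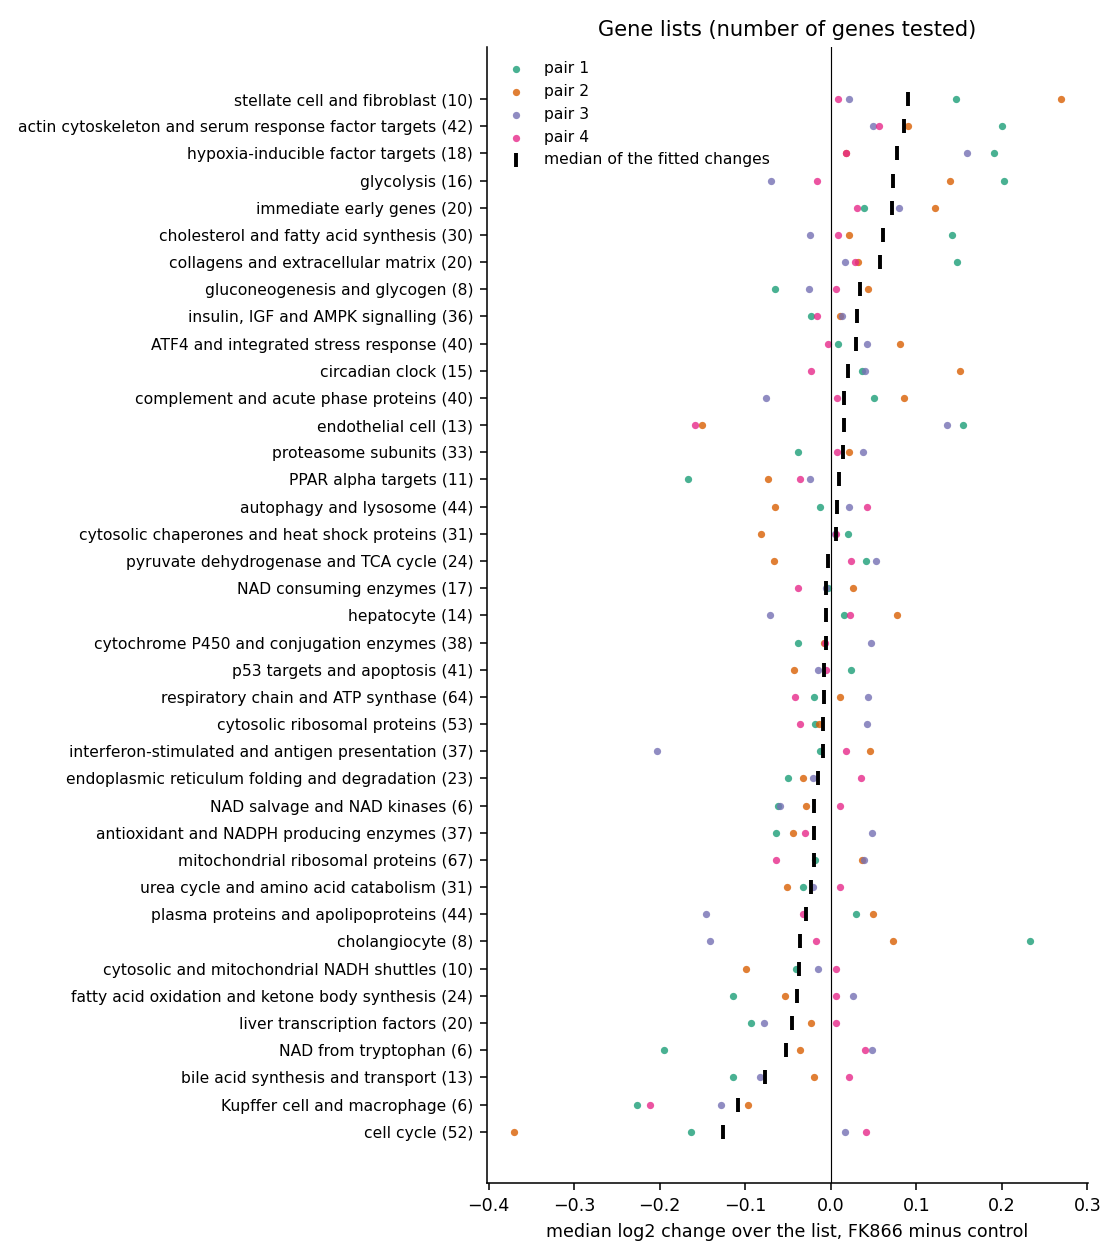
Median log2 change over the tested genes of each list (FK866 minus control), with a black bar for the fitted changes and a dot for each pair. Dots of the 4 pairs fall on both sides of 0 for most lists, and the cell cycle list spreads most, from -0.37 in pair 2 to 0.04 in pair 4.

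Among lists of liver functions, bile acid genes and liver transcription factors had more members lower than higher, by small amounts. Their counts around 0 moved with median centring, which put the median of all genes at 0.039, against 0.00038 in the main fit. Of 13 genes of bile acid synthesis and transport, 10 were lower and 3 higher, with 0 at an unadjusted p under 0.05 (6.24% over all genes). The bile acid receptor Nr1h4 differed by -0.20 log2 (SE 0.09). The list's median was -0.077 and, with median centring, -0.037, below the median of all genes in both. Of 20 liver transcription factors, 17 were lower and 3 higher, with a median of -0.045 and Hnf4a differing by -0.13 log2 (SE 0.09). With median centring 12 were lower and 8 higher (median -0.0066, against 0.039 over all genes). In pair 4 the medians of both lists were above 0, at 0.021 and 0.0062. Of 38 cytochrome P450 and conjugation enzymes, 18 were higher and 20 lower (24 and 14 with median centring). Cyp2f2 differed by -0.22 log2 (SE 0.07) and Adh1, the alcohol dehydrogenase that reduces NAD, -0.24 log2 (SE 0.08). Adh1 had log2 signals of 12.18, 11.11, 11.19 and 11.54 on FK866 arrays, against 12.63, 11.23, 11.32 and 11.82 on control arrays. It was lower with FK866 in each pair, although number 1 stood high in both groups. Of 31 genes of the urea cycle and amino acid catabolism, 12 were higher and 19 lower (18 and 13 with median centring). Arg1, the arginase of the urea cycle, had log2 signals of 7.52, 6.04, 6.89 and 6.97 on FK866 arrays, against 7.92, 6.56, 7.16 and 7.17 on control arrays. It was lower in every pair, with a change of -0.35 log2 (SE 0.07), and was detected on 3 of 4 FK866 arrays and 4 of 4 control arrays. Cps1 and Ass1, earlier enzymes of the cycle, differed by -0.0047 log2 (SE 0.10) and 0.01 log2 (SE 0.08).

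Of 44 plasma protein and apolipoprotein genes, 17 were higher and 27 lower. Ttr differed by 0.04 log2 (SE 0.08), the retinol carrier Rbp4 -0.22 log2 (SE 0.07), Fetub, a fetuin, -0.22 log2 (SE 0.07) and Igfals, which binds IGF complexes in plasma, 0.24 log2 (SE 0.08). Of 40 complement and acute phase genes, 23 were higher and 17 lower, and Saa1, a serum amyloid, differed by 0.02 log2 (SE 0.17). Of 15 circadian clock genes, 10 were higher and 5 lower, with Ccrn4l (nocturnin) differing by 0.27 log2 (SE 0.10). Of 36 genes of insulin, IGF and AMPK signalling, 22 were higher and 14 lower, with the AMPK kinase Camkk2 differing by -0.24 log2 (SE 0.07).

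Lists of stress responses had medians near 0. Of 40 genes of the integrated stress response, 27 were higher and 13 lower, with a median of 0.029. At an unadjusted p under 0.05, 4 were higher (3.14% over all genes). With no replicate block 0 of 40 were at such a p, but so few genes were (145 of 8567) that 0 does not set the list apart. The response's transcription factor Atf4 differed by 0.01 log2 (SE 0.09) and Ddit3 0.14 log2 (SE 0.15). Atf3, a stress-induced factor, had log2 signals of 8.07, 8.58, 7.57 and 7.26 on FK866 arrays, against 7.81, 8.35, 6.89 and 7.16 on control arrays. It was higher in each pair, with a change of 0.32 log2 (SE 0.10). Chac1, which degrades glutathione, had log2 signals of 11.66, 12.29, 11.41 and 11.13 on FK866 arrays, against 11.36, 12.13, 11.17 and 10.97 on control arrays. Its 4 pair differences were 0.29, 0.17, 0.24 and 0.16, and number 2 was the highest in both groups. The tRNA synthetase Wars differed by 0.19 log2 (SE 0.07). Of 23 genes of folding and degradation in the endoplasmic reticulum, 10 were higher and 13 lower (13 and 10 with median centring), with the chaperone Hspa5 differing by 0.12 log2 (SE 0.18). Of 31 cytosolic chaperones, 16 were higher and 15 lower, with the chaperonin subunit Cct2 differing by 0.25 log2 (SE 0.07).

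Of 41 p53 targets and apoptosis genes, 19 were higher and 22 lower (28 and 13 with median centring), with Trp53 differing by -0.03 log2 (SE 0.08). Of 37 antioxidant and NADPH-producing enzymes, 12 were higher and 25 lower (19 and 18 with median centring). G6pdx, which opens the pentose phosphate pathway, differed by -0.30 log2 (SE 0.12) and the metallothionein Mt2 -0.36 log2 (SE 0.13). Mt2 had log2 signals of 7.98, 7.87, 7.68 and 7.76 on FK866 arrays, against 7.87, 8.17, 8.41 and 8.28 on control arrays. It was lower in pairs 2 to 4 and higher in pair 1. Of 44 autophagy and lysosome genes, 24 were higher and 20 lower, with 0 at an unadjusted p under 0.05 (6.24% over all genes). Of 20 immediate early genes, 14 were higher and 6 lower, and of 37 interferon-stimulated and antigen presentation genes 15 were higher and 22 lower (22 and 15 with median centring). Among these interferon genes Ifi27 differed by -0.29 log2 (SE 0.11) and the peptide transporter Tap1 0.20 log2 (SE 0.07).

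Cell cycle genes had the lowest median of the pathway lists. Of 52 tested, 44 were lower and 8 higher, with a median of -0.126. At an unadjusted p under 0.05, 6 were lower and 0 higher (3.1% and 3.14% over all genes). With no replicate block 0 of 52 were at such a p, but so few genes were (145 of 8567) that 0 does not set the list apart. The pair medians were -0.164, -0.370, 0.017 and 0.041, below 0 in pairs 1 and 2 and above 0 in pairs 3 and 4. Without number 2 the median was -0.039, with 31 of 52 lower. Birc5, which serves chromosome segregation and survival, had log2 signals of 9.84, 9.09, 10.25 and 10.24 on FK866 arrays, against 10.38, 9.49, 10.29 and 10.53 on control arrays. It was lower in every pair, most in pairs 1 and 2, with a change of -0.32 log2 (SE 0.09). Cenpa, the centromeric histone, differed by -0.30 log2 (SE 0.14), Cdca8, which acts in the same complex as Birc5, -0.30 log2 (SE 0.12) and the topoisomerase Top2a -0.08 log2 (SE 0.10). Both arrays of number 2 were low in this list (mean log2 signal 8.37 with FK866 and 8.70 in control, against 8.94 to 9.33 and 9.10 to 9.30 in the other numbers).

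Among matrix genes, 16 of 20 were higher and 4 lower, with a median of 0.058, but without number 1 the split was 11 higher and 9 lower. The basement membrane collagen Col4a2 differed by 0.21 log2 (SE 0.06) and the protease inhibitor Timp3 0.25 log2 (SE 0.09). Of 18 Kupffer cell and macrophage markers 6 passed the filter, and 10 were detected on no array or at the lowest value, among them Emr1, Clec4f and Csf1r. The 6 summed to 3800 to 4956 signal units on FK866 arrays and to 3714 to 5341 on control arrays. Lyz2, a lysozyme of macrophages, differed by -0.41 log2 (SE 0.11), detected on 2 of 4 FK866 arrays and 3 of 4 control arrays, the endotoxin co-receptor Cd14 differed by -0.17 log2 (SE 0.06), and Cd68 0.18 log2 (SE 0.12). Of 17 endothelial markers 13 passed, summing to 4765 to 8758 on FK866 arrays and to 4984 to 8883 on control arrays. They went both ways, with the junction proteins Cdh5 and Pecam1 differing by 0.49 log2 (SE 0.19) and 0.28 log2 (SE 0.09) and the sinusoidal receptors Clec4g and Fcgr2b differing by -0.50 log2 (SE 0.16) and -0.23 log2 (SE 0.08). Of 10 cholangiocyte markers 8 passed, with 3 higher and 5 lower (4 and 4 with median centring). The part of other cell types in the changes above was not tested.

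Replicate numbers separated the arrays more than FK866 did. An F test over the numbers in the same fit called 921 of 8567 genes (10.8%) at an adjusted p under 0.05. Of the summed squares around the gene means, the number took 70.4% with 3 degrees of freedom, FK866 8.29% with 1 and the residual 21.3% with 3. Number 2 was farthest from the others for 518 of the 921 genes, number 1 for 216, number 4 for 95 and number 3 for 92. The 5 smallest p belonged to Moxd1, Uroc1, Areg, Slco1b2 and Sftpd, each with an adjusted p of 0.00761. Areg, the growth factor amphiregulin, had log2 signals of 10.10, 11.80, 10.27 and 10.13 on FK866 arrays, against 10.25, 11.61, 10.10 and 10.17 on control arrays. Number 2 stood above the rest in both groups. Moxd1, a monooxygenase, had log2 signals of 6.49, 6.52, 7.66 and 7.95 on FK866 arrays, against 6.25, 6.22, 7.72 and 7.79 on control arrays. Numbers 3 and 4 lay together above 1 and 2. Uroc1, the urocanase of histidine breakdown, and the hepatic uptake transporter Slco1b2 were highest in number 1 and lowest in number 2, with ranges of 1.56 and 1.63 log2 between numbers.

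Lists followed the numbers too. Relative to the mean of the 4 numbers, the cell cycle list stood at -0.515 in number 2 and at 0.319 in number 4. The hepatocyte markers stood at -0.334 in number 2 and 0.321 in number 1, and the integrated stress response at 0.221 and -0.108. Ddit3, a factor of that response, had log2 signals of 8.87, 10.70, 8.62 and 7.99 on FK866 arrays, against 8.66, 10.00, 8.67 and 8.28 on control arrays. Number 2 was the highest in both groups, and the range between numbers was 2.22 log2, the widest of the 921 genes. The labels do not say what a number stands for.

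**Figure D5:**
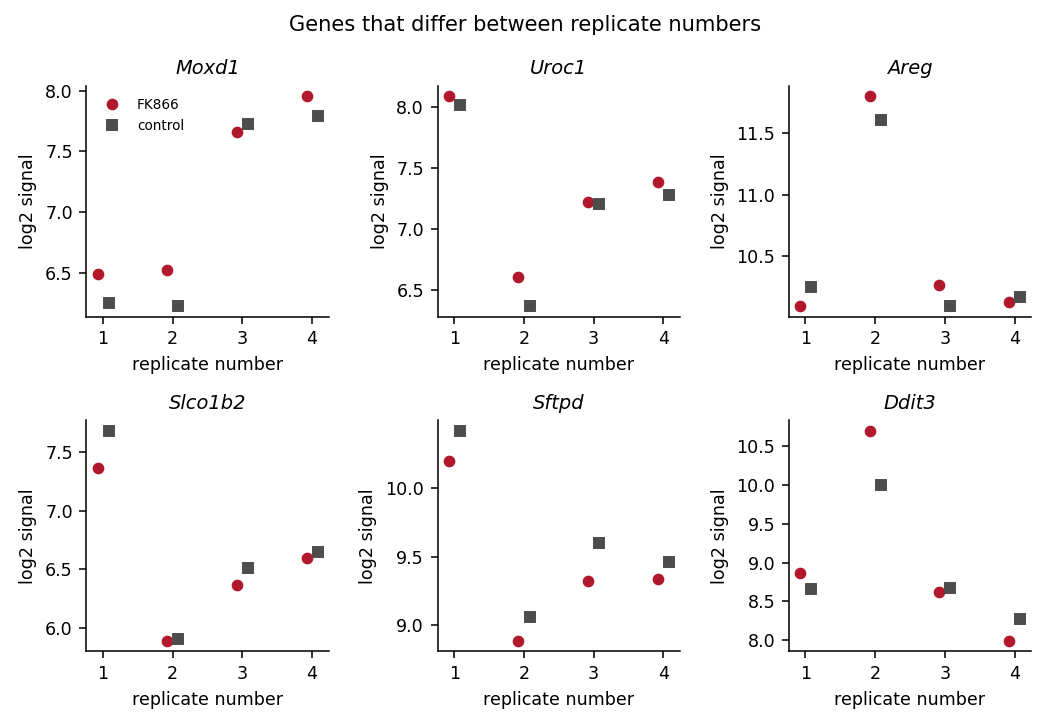
Log2 signals of 6 genes that differ between replicate numbers, by number (horizontal), with circles for FK866 and squares for control arrays. The circle and the square of a number lie near each other in most panels, with a gap of 0.70 in number 2 of Ddit3, and number 2 is the highest for Areg and Ddit3 and the lowest for Uroc1, Slco1b2 and Sftpd.

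The FK866 change was also set against that of the islets, in 1 fit of all 16 arrays, normalized together, with 9816 genes. Gene names in this fit came from matches over the hepatocyte arrays. For 2534 symbols the match over the islet arrays was displaced by 1 probe, which was not resolved, so gene identity in islets is less certain. Islets had received 10 nM of FK866 and hepatocytes 200 nM, so tissue and dose cannot be told apart. The islet arrays of number 2 were dimmer, with median signals of 18.05 with FK866 and 15.43 in control, against 26.9 to 33.1 on the other 6. Differences are islet change minus hepatocyte change. With limma's moderated test 6 genes (0.0611%) passed an adjusted p of 0.05, and 3 of them, Areg, Cdo1 and C8b, were detected on all hepatocyte arrays. The change of Areg was 0.04 log2 in hepatocytes and 1.85 in islets, a difference of 1.81 (SE 0.18, adjusted p = 0.00925). That of Cdo1, the cysteine dioxygenase, was -0.06 in hepatocytes and -1.38 in islets, a difference of -1.32 (SE 0.16, adjusted p = 0.0218). Cdo1 was detected on 1 of 4 FK866 islet arrays and 4 of 4 control islet arrays, so its islet change rests mostly on signals near background. That of C8b, a complement component, was 0.01 in hepatocytes and -1.13 in islets, a difference of -1.14 (SE 0.15, adjusted p = 0.0342). The other 3, Xrcc3, Lin7b and Aard, were detected on no hepatocyte array, so no hepatocyte change was measured for them and their test does not compare the responses of the tissues. In that fit the change of Acta1 was 1.01 in hepatocytes and -0.32 in islets and that of Actc1 1.24 and -0.07, and these differences did not pass (adjusted p 0.101 and 0.235). Without the numbers as a block 0 genes passed, with a smallest adjusted p of 0.255.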

How the data were processed

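Per the labels' protocols, total RNA was isolated with a spin-column kit and labelled with biotin for Illumina arrays. The authors deposited an intensity and a detection p-value per probe, with a background already subtracted by the values, and a score per gene symbol, which by its values is a centred and scaled log10 signal. The name of the scanner software, or of a normalization tool, is not given in the sources used here. Probes carry no names, so a symbol was given to the probe or run of probes whose log10 signals, with values under 1 set to 1, equal its scores over the hepatocyte arrays within 1e-06. This named 15085 of 18111 symbols and 11346 of 11361 probes detected on at least 4 arrays. The other 3026 symbols were at the lowest score on all hepatocyte arrays.

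In R 4.3.3 with limma 3.58.1, neqc with an offset of 16 corrected and quantile normalized the 8 arrays. The brightest probe over all 16 arrays, islets included, stood for a gene, and the detection filter was applied to that probe. Of 2050 genes with several detected probes, 46.7% had probes of differing sign (median gap 0.086 log2). limma's moderated test used the replicate number as a block, since the titles of both groups share these numbers. Deviations of same-numbered arrays from their group means correlated at 0.385 or above. The pairing comes from the titles' numbers, and the labels do not state that the arrays are paired. Intervals cover 95%, and the number of arrays limits the precision. Figures were drawn with matplotlib 3.10.9 in Python 3.11.15, and symbols are printed as deposited, with 2951 matched to RefSeq as synonyms.

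The genes, lists and tests were chosen with earlier results of these data known. Named genes were the 10 largest increases and decreases detected on all arrays with 4 pairs alike (uncharacterized models left out), the NAD genes, the first 2 and the up to 3 most changed members of a list, cell markers, genes detected in 1 group only, and the 5 smallest p between numbers and between tissues. A few genes that this rule takes are not reported here. The 34 pathway lists and 6 marker lists are described by counts and medians, with no test. Alternatives were no block, other detection filters, an offset of 50, median centring, means of probes, trended variances, the deposited scores and leaving out each number.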

Additional observations from a re-analysis of the deposited data

Results flagged for a closer look

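An array lying apart from the other 3 of its group, by Dixon's 95% criterion, was found in 12 of 234 groups of arrays examined for the 117 genes of the text. Chance alone gives about 1 in 20. Number 2 was the array in 6 of them, number 1 in 4, number 4 in 2 and number 3 in 0. Areg was 11.80 on the FK866 array of number 2, with the others between 10.10 and 10.27, and 11.61 on the control array of number 2, with the others between 10.10 and 10.25. On FK866 arrays, Hamp was 11.42 in number 2, below 12.66 to 12.90, and Uts2d was 8.62 in number 2, below 9.48 to 9.58. Sirt6 was 6.71 in number 2, above 6.01 to 6.09, Masp1 8.58 in number 1, above 7.36 to 7.51, and Thy1 6.49 in number 4, below 7.25 to 7.29. On control arrays, Shcbp1 was 6.81 in number 2, below 7.31 to 7.41, and Parp1 was 10.55 in number 4, above 10.35 to 10.37. In number 1, Gpd1 was 7.40, above 6.63 to 6.71, Dgat2 12.13, above 11.68 to 11.76, and Ccbl1 9.08, above 8.45 to 8.56.

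The interaction test of the FK866 change between islets (10 nM) and hepatocytes (200 nM) passed for 6 genes. The islet change minus the hepatocyte change was 1.81 for Areg, -1.32 for Cdo1, -1.14 for C8b, -1.06 for Xrcc3, -1.01 for Aard and -0.92 for Lin7b, but the last 3 were detected on no hepatocyte array, so that for them no difference in response was measured. Cdo1 was detected on 1 of 4 FK866 islet arrays.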

How the results depend on the processing

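Under all 12 alternatives run for the comparison of FK866 with control, 0 genes passed an adjusted p of 0.05, except that the deposited scores gave 1, Heatr5a, named after its value was seen. It had an adjusted p of 0.0168 on the score scale and 0.970 in the fit reported. Its score averages 2 probes, 1 of them detected on no hepatocyte array and below the floor of 1 on every control array. Genes at an unadjusted p under 0.05 numbered 535, 145 with no replicate block, 825 of 15085 with no detection filter, 407 to 645 when a replicate number was left out, and 450 to 575 otherwise. The fit without the replicate block left every change as it was and moved only the errors. The test between numbers called 921 genes, 2095 with trended and robust variances and 1084 with median centring. The test between tissues called 6, 7 with trended and robust variances and 0 with no replicate block.

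Of 1387 changes of the named genes under alternatives, 57 had the other sign, among them Tpm2 and Shcbp1 on the score scale, where 2 probes detected on no array enter the mean of each. Actc1 lay between 0.950 and 1.496, Acta1 between 0.82 and 1.23 and Krt17 between 0.65 and 1.30 when a number was left out. When a number was left out, the median of the actin list lay between 0.055 and 0.113 and that of the cell cycle list between -0.179 and -0.039. For the actin list the median was 0.115 with median centring (0.039 over all genes), and on the deposited scores 27 members were higher and 15 lower.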
